A study of Mus musculus with 6 samples.

Results

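A set of 101 brighter microRNA genes, other than miR-302, miR-367 and the muscle microRNAs, was examined in mouse hearts that overexpress the miR-302/367 cluster. They are the genes with a symbol of the form Mir plus a digit, or Mirlet7, whose mean over all 6 arrays was at least 6.0 on the log2 scale. The genes of miR-302, miR-367, miR-1a, miR-133a, miR-208 and miR-499 were left out, among them 6 that reached that level, including the miR-1a host transcript Mir1a-1hg. The 101 genes came from 483 with such a symbol and from 22180 genes with a probe of their own. Of the 101, 99 are microRNA genes and 2, Mir99ahg and Mir100hg, are long host transcripts of microRNAs.

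The mice had a mixed C57BL/6 x 129S6 background, and their hearts were run on 6 arrays. The 3 control samples carried Nkx2.5-Cre, a Cre recombinase expressed from a cardiac progenitor gene, and the 3 transgenic samples carried Nkx2.5-Cre together with R26R-miR302-367, a Cre-dependent copy of the cluster at Rosa26. Both groups carry the Cre. The labels give the age as postnatal day 14 in the source name and harvest protocol and as E14 in the age field, and that conflict is unresolved. Separate animals are not stated in the labels. Each p-value sets a group difference against the spread within the groups of these 6 samples, and that spread may be technical.

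A microRNA is cut from a hairpin in a longer primary transcript, first by Drosha with Dgcr8 in the nucleus and then by Dicer1 in the cytoplasm, and is loaded into an Argonaute protein. Bases 2 to 8 of the mature strand, the seed, choose the messenger RNAs it represses. Many microRNA genes lie inside a host gene or next to other microRNA genes and are transcribed with them. In the heart, miR-30, let-7 and miR-378 are abundant in muscle cells, and miR-143 with miR-145 is best known from vascular smooth muscle. Complementary DNA was primed here with poly(T), so the array values are for transcripts that carry the hairpin sequence, and mature microRNAs were not measured.

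The sequences below show which of the measured genes share a seed with each other or with the overexpressed cluster. They are mature microRNAs from RefSeq (GRCm38.p6), written 5′ to 3′ with the seed, bases 2 to 8, in capitals. First come mature microRNAs of the overexpressed cluster with miR-92b, the only matched gene among the 101 that has a seed of the cluster, that of miR-367.
miR-302b-3p: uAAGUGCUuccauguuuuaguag
miR-302c-3p: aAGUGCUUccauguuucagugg
miR-302d-3p: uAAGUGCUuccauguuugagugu
miR-367-3p: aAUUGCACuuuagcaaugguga
miR-92b-3p: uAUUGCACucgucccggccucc

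The next set holds members of the miR-181, miR-99, let-7 and miR-7 families, where genes with a common seed had unlike values, and miR-15a with miR-16.
miR-181b-5p, from Mir181b-1 and Mir181b-2: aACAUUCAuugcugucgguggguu
miR-181c-5p: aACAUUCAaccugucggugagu
miR-181d-5p: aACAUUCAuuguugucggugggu
miR-99a-5p: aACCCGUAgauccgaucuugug
miR-99b-5p: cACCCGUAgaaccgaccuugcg
let-7c-5p: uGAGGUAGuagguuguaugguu
let-7a-5p: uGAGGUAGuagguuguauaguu
miR-7a-5p, from Mir7-1: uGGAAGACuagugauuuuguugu
miR-7b-5p: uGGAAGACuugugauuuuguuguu
miR-15a-5p: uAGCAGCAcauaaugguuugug
miR-16-5p: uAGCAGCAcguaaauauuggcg

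The last set holds further microRNAs whose genes were higher in transgenic hearts and are set beside their hosts or neighbours.
miR-490-3p: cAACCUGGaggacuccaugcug
miR-30e-5p: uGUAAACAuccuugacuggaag
miR-107-3p: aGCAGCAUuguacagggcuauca
miR-23a-3p: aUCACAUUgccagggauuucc
miR-27a-3p: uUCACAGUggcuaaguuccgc

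Mature sequences were matched for 79 of the 101 genes by gene identifier, 128 sequences with 117 distinct seeds. A seed was held by more than 1 gene in 9 cases, which took in 16 genes. The letters AAGUGC, which the miR-302 strands printed above share near their start, were within bases 1 to 9 in 0 of the matched genes' mature sequences.

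The cluster itself checked the genotype. Mir302c rose from 3.37 ± 0.34 to 9.98 ± 0.017 (log2, SD, n = 3 each), and Mir302a, Mir302b, Mir302d and Mir367 were also higher on every transgenic array than on any control array. Array medians lay between 5.45 and 5.54. Markers of heart muscle cells had 0 of 9 genes called in either direction. Of 14 endothelial markers 9 fell, with mean levels of 8.92 to 9.04 on control and 8.52 to 8.66 on transgenic arrays. Of 14 macrophage and myeloid markers 8 fell, with mean levels of 6.84 to 7.01 on control and 6.25 to 6.47 on transgenic arrays. Of 10 fibroblast markers 1 rose and 1 fell, of 9 neural markers 2 fell, and of 5 measured erythroid markers 0 passed the test. In bulk hearts, fewer cells of a type and less RNA per cell cannot be told apart, and the part of these shifts in the microRNA values was not tested.

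The comparison asked which of the 101 genes differed between transgenic and control hearts. In transgenic hearts 25 of them rose and 0 fell (limma, Benjamini-Hochberg adjusted p under 0.05 over all genes tested). Over all 22180 genes the test called 11.1%, with 5.35% higher and 5.76% lower. Of all calls 48.2% were higher, against 36.4% after a renewed quantile normalization and 38.1% after centring each array on its median. Among the other genes at a mean of 6.0 or more, 18.9% were called, 8.97% higher and 9.96% lower. The rises ran from 0.44 to 1.42 on the log2 scale, with a median of 0.84. At an unadjusted p under 0.05, 40 of the 101 were higher and 4 lower. The 25 genes lie at 22 separate loci, where microRNA genes within 10 kb of each other count as 1 locus, and the 101 lie at 87.

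The level that chose these genes was a mean over both groups. Of the 101, 93 reached 6.0 in both groups, Mir3085 in control hearts only, and 7 in transgenic hearts only. Those 7, Mir1927, Mir30e, Mir378a, Mir181b-2, Mir23a, Mir490 and Mirlet7c-1, are in the set because they were high in transgenic hearts, and all 7 are among the 25. The largest rises of the set, 1.42 for Mir181b-2 and 1.37 for Mir1927, are among these 7. Of the 94 genes at 6.0 or more in control hearts, 18 rose and 0 fell, beside 8.18% higher and 10.4% lower among other genes at that control level. The last genes inside the limit were Mir3085 (mean 6.08), Mirlet7a-1 (6.04) and Mirlet7c-1 (6.00), and the first outside were Mirlet7e (5.99), Mir540 (5.95) and Mir301b (5.94).

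The median difference over the 101 genes was 0.11, beside -0.03 over all genes tested and 0.003 over other genes at a mean of 6.0 or more. With the limit of 6.0 set on the control mean instead, the median over 96 microRNA genes was 0.07. A positive difference was seen in 66 of the 101 and in 43.3% of all genes. Without control 3 the median over the 101 was 0.20 with 79 positive, and with a renewed quantile normalization it was 0.04 with 58 positive. The groups did not overlap for 41 of the 101, 37 higher and 4 lower, where all genes gave 30.9%, with 14.2% higher and 16.7% lower. In the plot of difference against level, the brightest called gene is Mir703, the tenth by level. The 76 genes not called had differences from -0.46 for Mir187 to 0.75 for Mir669a-3, and 41 of them were positive.

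**Figure D1:**
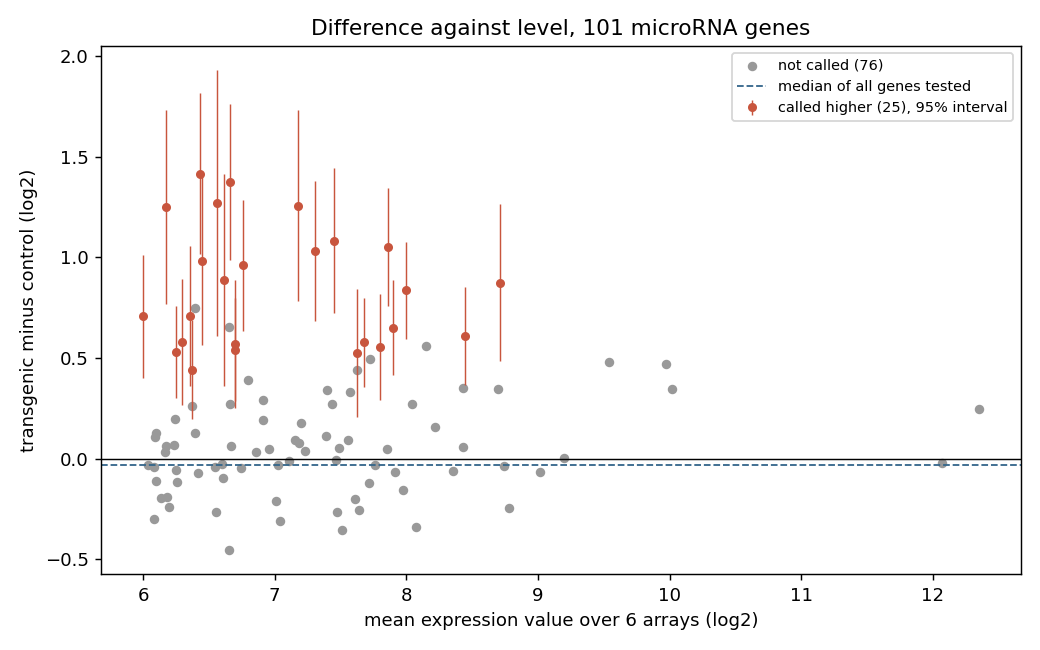
Difference between transgenic and control hearts (log2, vertical axis) against the mean over 6 arrays (log2, horizontal axis) for 101 microRNA genes. The 25 called genes (red, with 95% intervals from limma) lie between 0.44 and 1.42, all above the dashed line at the median of all genes, -0.03.

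The miR-181 genes gave the largest rise of the set, that of Mir181b-2, which reached 6.0 in transgenic hearts only. Among genes of the set at 6.0 or more in control hearts, Mir181b-1 rose most. The miR-181 family is known for roles in lymphocyte development. Mir181b-2, on chromosome 2 (mature strand at chr2:38853845-38853868, plus strand), had 5.46, 6.10 and 5.61 on the control arrays and 7.19, 7.34 and 6.89 on the transgenic arrays. The groups did not overlap, and the gene rose by 1.42 on the log2 scale (2.67-fold, SE 0.18, limma adjusted p = 0.00188). Mir181b-1, on chromosome 1 (chr1:137966650-137966673, plus strand), had 6.52, 6.72 and 6.41 in control and 7.96, 8.18 and 7.27 in transgenic hearts. It rose by 1.26 (SE 0.21, limma adjusted p = 0.00676), with the third transgenic array lowest. Both genes give the same mature miR-181b strand printed above, so a probe that covered only that strand could not assign it to 1 locus.

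Their neighbours, Mir181a-2 and Mir181a-1, had values unlike each other. Mir181a-2, which lies beside Mir181b-2 and is below the level limit, rose by 1.01 (SE 0.14, limma adjusted p = 0.00294). Mir181a-1, beside Mir181b-1, had a difference of 0.12 (95% interval -0.08 to 0.31) at 3.20 in control hearts, a low value for this array. The pair Mir181c and Mir181d has the same seed and sits on chromosome 8. Mir181c had 7.21, 7.04 and 7.43 in control and 7.80, 7.37 and 7.54 in transgenic hearts, a difference of 0.34 (limma adjusted p = 0.159). Mir181d had a difference of -0.31 (95% interval -0.79 to 0.16, adjusted p = 0.409), and its groups overlapped.

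The pair Mir99a and Mirlet7c-1 on chromosome 16 rose together, and Mirlet7c-1 is in the set only through its transgenic values. The miR-99 family is known to repress mTOR, and let-7 accumulates as cells differentiate and represses growth and cell cycle genes. Mir99a had 6.70, 6.98 and 6.68 in control and 7.76, 8.14 and 7.56 in transgenic hearts, without overlap. It rose by 1.03 (2.05-fold, SE 0.15, limma adjusted p = 0.00412). Mirlet7c-1 had 5.54, 5.93 and 5.47 against 6.23, 6.48 and 6.36, and it rose by 0.71 (SE 0.13, limma adjusted p = 0.0118), a call lost without transgenic 2 (adjusted p = 0.0552). Mir99ahg, by its name the host transcript of Mir99a and itself in the set, had 7.50, 7.52 and 7.21 against 7.75, 8.08 and 7.71, without overlap. Its difference of 0.44 had a 95% interval of 0.15 to 0.73 and missed the threshold (limma adjusted p = 0.0634).

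The matching pair on chromosome 17 gave other values. Mir99b had 7.60, 7.75 and 7.98 in control and 7.75, 7.76 and 7.73 in transgenic hearts, a difference of -0.03 (95% interval -0.28 to 0.21). Mirlet7e beside it, just below the level limit, was higher by 0.58 (SE 0.16, limma adjusted p = 0.0471). It missed the threshold in fits that left out control 1 (0.123), control 3 (0.11), transgenic 1 (0.154) or transgenic 2 (0.159), and with renewed quantile normalization, centred arrays or averaged probes. Spaca6, the gene that holds Mir99b, rose by 0.77 (SE 0.087, limma adjusted p = 0.00126). In the third let-7 locus, Mirlet7a-1 had a difference of -0.03 (95% interval -0.29 to 0.23), and its dimmer neighbour Mirlet7d rose by 0.86 (SE 0.18, adjusted p = 0.0179), lost without transgenic 1 (0.0729) or transgenic 2 (0.0737). The other host transcript of the set, Mir100hg, had a difference of 0.07 (adjusted p = 0.748).

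The microRNAs of smooth muscle, Mir143 and Mir145a, were both higher. They keep vascular smooth muscle in its contractile state. Mir143 had 7.05, 7.55 and 7.42 in control and 8.33, 8.39 and 8.45 in transgenic hearts. It rose by 1.05 (2.07-fold, SE 0.13, limma adjusted p = 0.00183, the smallest of the set). Mir145a had 7.48, 7.16 and 7.45 against 8.08, 7.62 and 7.96, and it rose by 0.52 (SE 0.14, limma adjusted p = 0.046). For Mir145a the adjusted p was above the threshold in fits that left out control 1 (0.0777), control 2 (0.114), control 3 (0.0624), transgenic 1 (0.155) or transgenic 3 (0.134). The same held after centring the arrays (0.0547) and after a renewed quantile normalization (0.0726).

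Smooth muscle markers did not move as a list. Of 9 measured, Cnn1, a calponin, rose by 1.41 and Acta2, smooth muscle actin, fell by 0.52, and the median was -0.08. Their mean level was 7.89 to 8.07 on control and 8.01 to 8.07 on transgenic arrays. Myh11, smooth muscle myosin, had a difference of -0.08 (95% interval -0.31 to 0.15). Carmn, the long RNA gene that holds both microRNA genes in RefSeq (strand not compared here), had 8.53, 8.54 and 8.68 in control and 8.72, 8.75 and 8.60 in transgenic hearts. Its difference was 0.10 (95% interval -0.10 to 0.31, limma adjusted p = 0.541).

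Genes of the miR-30 family, abundant in heart muscle, rose at both measured loci of the set. Mir30e had 6.30, 6.36 and 5.12 in control and 7.08, 7.40 and 7.12 in transgenic hearts, and the third control array stands apart from the other two. It rose by 1.27 (SE 0.29, limma adjusted p = 0.0264). The call was lost without transgenic 1 (adjusted p = 0.0725), transgenic 2 (0.0986) or transgenic 3 (0.069). Its neighbour Mir30c-1, below the level limit, rose by 0.68 (SE 0.16, adjusted p = 0.0319), lost without each of control 1 to 3, transgenic 2 and transgenic 3 (0.057 to 0.088) and with the replicate block (0.0571).

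At the other locus Mir30d had 6.61, 5.55 and 6.34 against 7.18, 7.04 and 6.94, with the second control array low. It rose by 0.89 (SE 0.23, limma adjusted p = 0.0424). Mir30d missed the threshold in fits that left out control 3 (0.0565), transgenic 1 (0.137), transgenic 2 (0.116) or transgenic 3 (0.0886), and with renewed quantile normalization (0.0503). Mir30b next to it had a difference of 0.20 (95% interval -0.19 to 0.58, adjusted p = 0.528), and its groups overlapped.

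Both miR-23 loci were higher. These microRNAs lie in clusters with miR-27 and miR-24, and miR-23a is known from studies of cardiac hypertrophy. Mir23a had 6.07, 6.08 and 5.82 in control and 6.44, 6.55 and 6.56 in transgenic hearts, and it rose by 0.53 (SE 0.10, limma adjusted p = 0.0116). Mir27a in the same cluster had 6.28, 6.40 and 6.61 against 7.11, 6.91 and 6.88, and it rose by 0.54 (SE 0.11, adjusted p = 0.0177). The Mir23a call was lost without transgenic 2 (0.0534), and that of Mir27a without control 1 (0.0659), transgenic 1 (0.0729) or transgenic 2 (0.0541). Mir23b, on chromosome 13, had 7.48, 7.54 and 7.69 against 8.19, 8.37 and 8.10. It rose by 0.65 (SE 0.10, limma adjusted p = 0.00552), a call kept whichever array was left out.

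The plot of microRNA genes by shared seed or cluster sets these families side by side. Genes with a common seed had differences on both sides of 0 in the miR-181, miR-7, miR-99 and let-7 families. Mir7-1, whose microRNA is best known from neurons and pancreatic islets, had 6.42, 6.48 and 5.93 in control and 7.20, 7.20 and 7.31 in transgenic hearts. It rose by 0.96 (SE 0.14, limma adjusted p = 0.00425). Mir7b, with the same seed, had 6.04, 6.04 and 6.63 against 6.02, 6.19 and 5.91, a difference of -0.20 (95% interval -0.56 to 0.17).

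**Figure D2:**
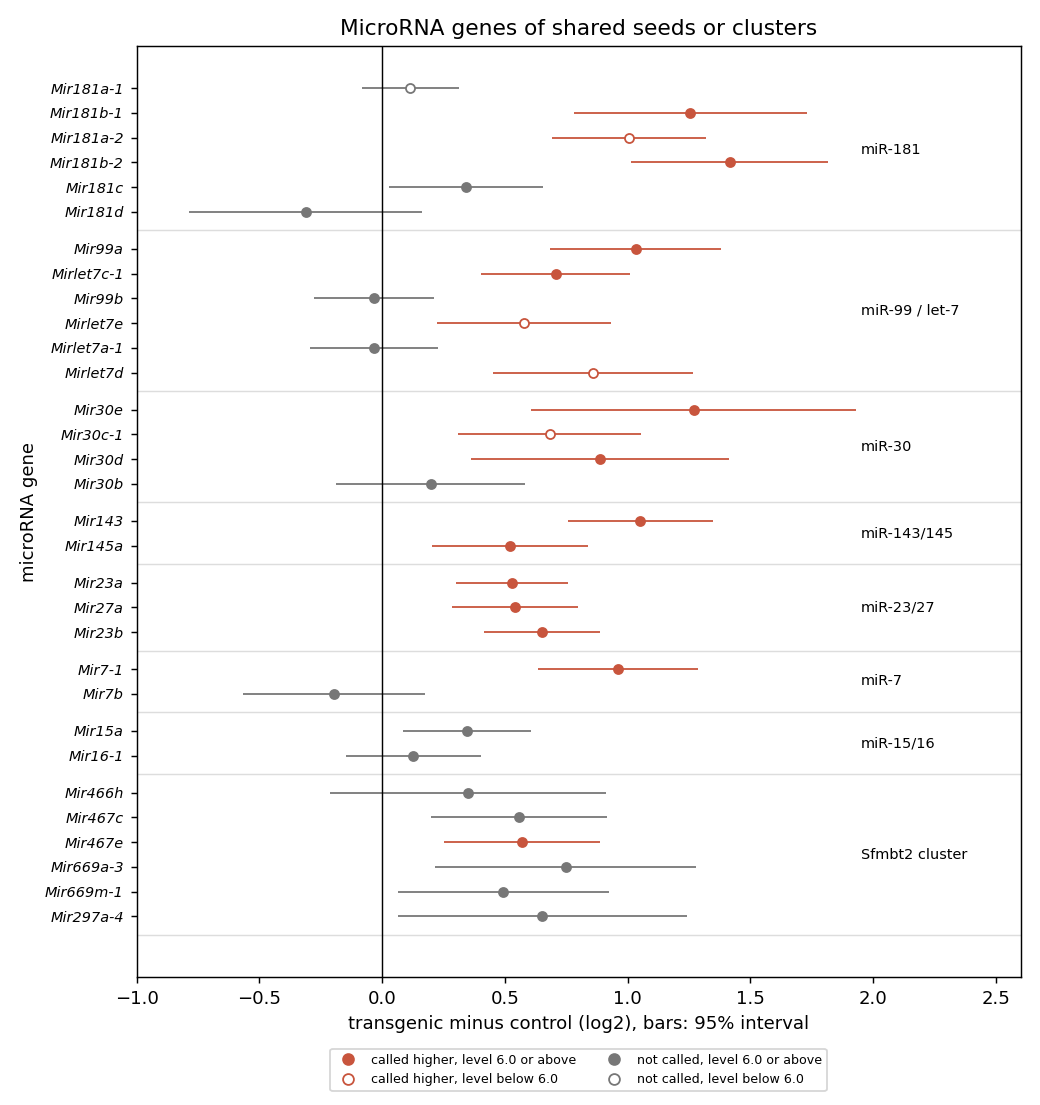
Difference between transgenic and control hearts (log2, horizontal axis, bars are 95% intervals from limma) for microRNA genes grouped by family or cluster. Filled points are at 6.0 or above and open points below, red points passed the test. In the miR-181 group Mir181b-2 lies at 1.42 and Mir181d at -0.31.

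The miR-15 family is known for holding back division of heart muscle cells after birth. Mir15a had 8.52, 8.38 and 8.68 in control and 8.90, 9.01 and 8.70 in transgenic hearts, without overlap. Its difference of 0.35 had a 95% interval of 0.09 to 0.61 and did not pass (limma adjusted p = 0.0926). Mir16-1 beside it had a difference of 0.13 (95% interval -0.15 to 0.40). Dleu2, the noncoding host of both, was higher by 0.43 with an adjusted p of 0.0708.

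Mir92b, which has the miR-367 seed, had 7.01, 7.03 and 7.30 in control and 6.97, 7.13 and 7.21 in transgenic hearts. Its groups overlapped, and the difference was -0.01 (95% interval -0.26 to 0.24, limma adjusted p = 0.963).

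Host genes and their microRNA genes were then set side by side. A host on the same strand was found in RefSeq for 44 of the genes, and it was measured for 40. Of the 10 called genes among these 40, the host rose for 3, fell for 1 and was not called for 6. Of the 30 others, the host rose for 3 and fell for 4, a share near the 18.9% called among other genes at a mean of 6.0 or more. The 10 were chosen for their rise and the hosts were not. Of the 10, Mir1927, Mir30e and Mir490 reached 6.0 in transgenic hearts only. Their hosts, in that order, rose, was not called and fell. The difference between a microRNA gene and its host was not tested.

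Mir490 lies inside Chrm2, the muscarinic acetylcholine receptor that slows the heart, on chromosome 6 (mature strand at chr6:36421800-36421821, plus strand). It had 5.44, 5.99 and 5.22 in control and 6.63, 7.16 and 6.60 in transgenic hearts, and it rose by 1.25 (2.38-fold, SE 0.21, limma adjusted p = 0.00749). Chrm2 had 9.67, 9.69 and 9.65 against 9.23, 9.41 and 9.25, and it fell by 0.37 (SE 0.086, adjusted p = 0.0278). Chrm2 missed the threshold in fits that left out control 1 (0.0822), control 2 (0.0682), transgenic 1 (0.105) or transgenic 3 (0.0904), and with the replicate number as a block (0.0531). Neither gene's groups overlapped, and they lie in opposite directions.

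At 3 hosts the gene and its microRNA rose together. Mir1927 had 6.35, 5.64 and 5.94 in control and 7.22, 7.53 and 7.30 in transgenic hearts and rose by 1.37 (SE 0.17, limma adjusted p = 0.00187). Rabgap1l, its host, encodes a Rab GTPase-activating protein and rose by 0.95 (SE 0.081, adjusted p = 0.000359). Mir1898 had 6.96, 7.07 and 6.69 against 8.03, 8.26 and 7.68 and rose by 1.08 (SE 0.16, adjusted p = 0.00392). Zfr, its zinc finger host, rose by 0.40 (adjusted p = 0.0223), a call lost without control 1 (0.0568), transgenic 2 (0.0877) or transgenic 3 (0.0772) and with the replicate block (0.0508). Mir3097 had 7.67, 7.52 and 7.55 against 8.23, 8.55 and 8.48 and rose by 0.84 (SE 0.11, adjusted p = 0.0021). Rgs12, its host and a regulator of G protein signalling, rose by 0.57 (adjusted p = 0.00859). Mir378a, which is known to act on energy metabolism, had 5.78, 6.41 and 5.67 against 6.82, 7.09 and 6.90.

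Mir378a rose by 0.98 (SE 0.18, limma adjusted p = 0.0111), a call lost without transgenic 2 (0.0515). A dimmer probe of Mir378a had a difference of 0.08 (adjusted p = 0.65 with all probes tested). The only other gene of the set with another probe was Mir191, not called with either. Ppargc1b, the coactivator gene that holds Mir378a in RefSeq (strand not compared), was higher by 0.41 (adjusted p = 0.0393), a call lost when any array other than control 3 was left out (0.077 to 0.14) and with the replicate block (0.0555).

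For 6 called genes the host was not called. Mir30e lies in Nfyc, a subunit of a general transcription factor, which had a difference of 0.06 (95% interval -0.16 to 0.28). Mir7-1 lies in Hnrnpk, an RNA-binding protein gene, which had 0.25 (95% interval 0.06 to 0.44, limma adjusted p = 0.0925). Mir23b lies in Aopep, an aminopeptidase gene, with 0.07 (95% interval -0.16 to 0.30). Mir107 lies in Pank1, an enzyme gene of coenzyme A synthesis, and had 7.31, 7.37 and 7.49 in control and 7.84, 7.99 and 8.08 in transgenic hearts. It rose by 0.58 (SE 0.098, adjusted p = 0.00724), while Pank1 had -0.16 (95% interval -0.40 to 0.08).

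The remaining hosts of that kind were Atp5b and Atg5. Mir677 lies in Atp5b, a subunit of the mitochondrial ATP synthase. It rose by 0.56 (limma adjusted p = 0.0178, lost without control 2, 0.053, transgenic 1, 0.0637, or transgenic 2, 0.0682), and Atp5b had -0.07. Mir1929 lies in Atg5, an autophagy gene. It rose by 0.44 (adjusted p = 0.0333), a call lost without each array in turn (0.059 to 0.104) and with renewed quantile normalization (0.0726), centred arrays (0.0596) and the replicate block (0.0692), and Atg5 had 0.09.

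**Figure D3:**
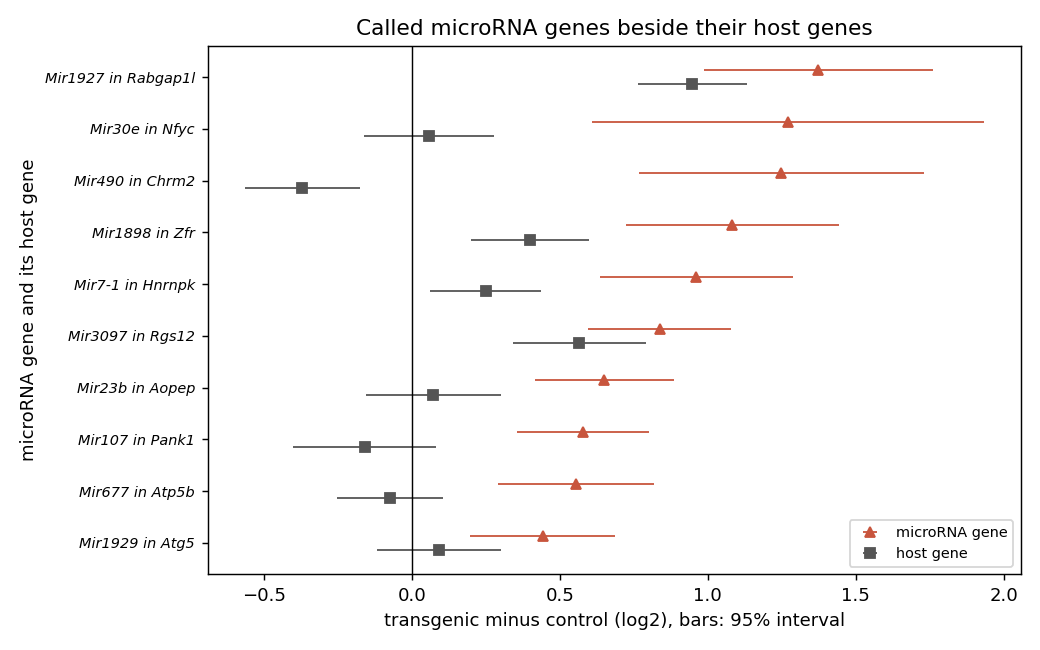
Difference between transgenic and control hearts (log2, horizontal axis, bars are 95% intervals from limma) for the 10 called microRNA genes with a measured host on the same strand (triangles) and for those hosts (squares). Mir490 lies at 1.25 and its host Chrm2 at -0.37, and Mir1927 lies at 1.37 beside Rabgap1l at 0.95. Mir490, Mir1927 and Mir30e reached the level limit in transgenic hearts only.

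The 7 called hosts of uncalled microRNA genes include Spaca6, given above, and those that follow. Mir483, inside the growth factor gene Igf2, had 7.54, 7.43 and 8.37 in control and 7.40, 7.79 and 7.78 in transgenic hearts, a difference of -0.12 (95% interval -0.65 to 0.40). Igf2 rose by 0.40 (limma adjusted p = 0.0153), a call lost without transgenic 2 (0.0674) or transgenic 3 (0.0543). Mir341 had a difference of 0.29 (adjusted p = 0.183), and its host Rian, a long RNA of the imprinted Dlk1-Dio3 domain, rose by 0.74 (SE 0.11, adjusted p = 0.00392). Mir185 had 0.09 and Mir1933 -0.01, while their hosts Tango2 and Ugp2 fell by 0.57 (adjusted p = 0.00478) and by 0.54 (adjusted p = 0.0128), the latter lost without control 1 (0.0529) or transgenic 2 (0.0539). Mir1954 had -0.07, and its host Eng, an endothelial receptor gene, fell by 0.41 (adjusted p = 0.0284). The Eng call was lost when any array other than control 3 was left out (0.061 to 0.093). Mir5100 was not called, and Mief2, its host and a mitochondrial fission factor gene, fell by 0.42 (adjusted p = 0.0388), lost in the same 5 fits (0.0737 to 0.124).

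At the imprinted Dlk1-Dio3 domain, 6 genes of the set were measured, and Mir453 was the only called gene among them. Mir453 had 6.20, 6.12 and 5.71 in control and 6.67, 6.66 and 6.43 in transgenic hearts. It rose by 0.58 (SE 0.14, limma adjusted p = 0.0307), a call lost without transgenic 1 (0.109) or transgenic 2 (0.109) and with renewed quantile normalization (0.0533). The others, Mir329, Mir666, Mir673, Mir665 and Mir341, had differences from -0.06 to 0.29.

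The cluster inside Sfmbt2, a Polycomb-related gene, holds many near-identical microRNA genes, so its probes may share signal and its genes are uncertain as separate measurements. All 6 genes of the set there had positive differences, from 0.35 for Mir466h to 0.75 for Mir669a-3. Only Mir467e, with 6.17, 6.51 and 6.55 in control and 7.22, 6.90 and 6.82 in transgenic hearts, passed (0.57, SE 0.14, limma adjusted p = 0.0342). Mir467e missed the threshold in fits that left out control 1 (0.1), control 2 (0.0527), transgenic 1 (0.112) or transgenic 2 (0.0831) and with the replicate block (0.0688). Mir467c had 8.26, 7.70 and 7.64 against 8.47, 8.49 and 8.32, a difference of 0.56 with an adjusted p of 0.0556. Measured genes of the cluster below the level limit went in both directions, from -0.31 for Mir669m-2 to 0.39 for Mir466g, neither called. Sfmbt2 itself was dim, at 4.30 in control hearts, and had a difference of 0.01 (95% interval -0.17 to 0.19, strand not compared).

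The other called genes were Mir703, Mir505 and Mir5103. Mir703 had 8.36, 8.32 and 8.14 in control and 9.58, 8.97 and 8.89 in transgenic hearts, and it rose by 0.87 (SE 0.17, limma adjusted p = 0.0142). Mir505 had 8.09, 8.07 and 8.26 against 8.61, 8.92 and 8.71, and it rose by 0.61 (SE 0.11, adjusted p = 0.00879). Mir5103 had 6.18, 5.92 and 5.92 against 7.05, 6.63 and 6.46, and it rose by 0.71 (SE 0.15, adjusted p = 0.0206). Mir5103 missed the threshold in fits that left out control 2 (0.0576), control 3 (0.0511) or transgenic 2 (0.0577). For all 25 called genes the lowest transgenic array lay above the highest control array, as the plot of values on each array shows. They were called on these same arrays, so this adds no support to the calls. Over all genes, called or not, 14.2% were higher without overlap.

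**Figure D4:**
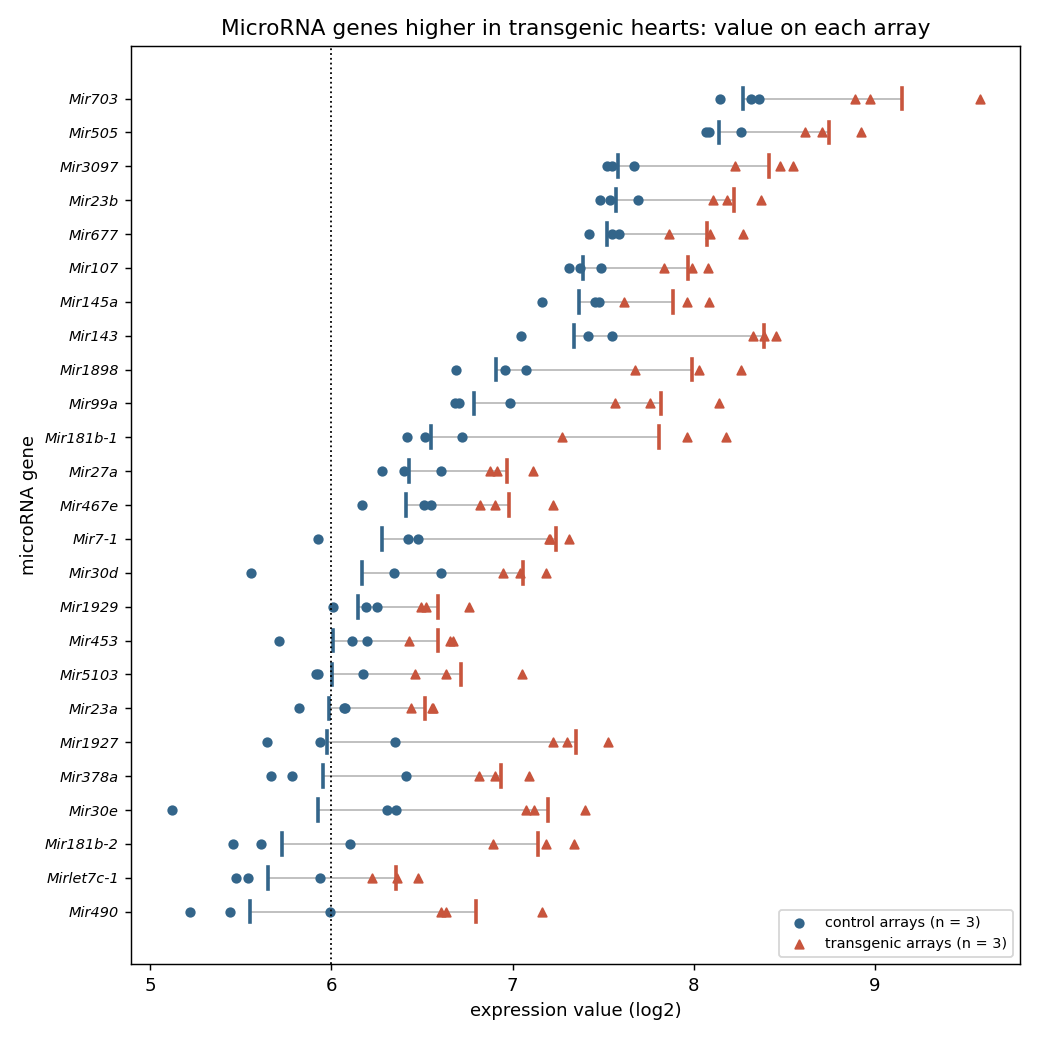
Expression value (log2, horizontal axis) of the 25 microRNA genes higher in transgenic hearts, ordered by control mean. Points are single arrays (3 control in blue, 3 transgenic in red), vertical bars are group means, and the dotted line marks the level limit of 6.0. Control means run from 5.55 for Mir490 to 8.27 for Mir703.

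The 10 brightest probes of the set held 1 called gene, Mir703, beside 8.97% called higher among other genes at a mean of 6.0 or more. By level, 5 genes were called in ranks 1 to 25, 6 in 26 to 50, 7 in 51 to 75 and 7 in 76 to 101. Brightness of different probes does not order the abundance of their genes. Mir5099 had 12.32, 12.14 and 12.22 in control and 12.44, 12.55 and 12.44 in transgenic hearts, a difference of 0.25 (limma adjusted p = 0.115). Mir449b had 12.02, 12.02 and 12.21 against 11.84, 12.18 and 12.16, a difference of -0.02 (95% interval -0.28 to 0.24). Of the 10 brightest, Mir692-1, Mir5125 and Mir5123 had differences of 0.35, 0.47 and 0.48 without overlap of the groups and adjusted p-values from 0.0605 to 0.0646. These passed once the dimmest genes were dropped, and also under an intensity trend with robust variance, where Mir5099 passed too. Mir1195, Mir1954, Mir680-2 and Mir1956 had values from -0.24 to 0.00, and the tenth, Mir703, is given above.

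No gene of the set fell by the test. The largest negative difference was that of Mir187, -0.46 (95% interval -0.82 to -0.10, limma adjusted p = 0.107), with overlapping groups. Mir1938 had 7.76, 7.79 and 7.52 in control and 7.31, 7.49 and 7.21 in transgenic hearts, a difference of -0.36 (adjusted p = 0.0773). Mir1938 was called lower when control 3 was left out, with an intensity trend, and, together with Mir3085, with array weights or a renewed quantile normalization. Mir210, the microRNA best known for its response to hypoxia, had 7.76, 7.69 and 7.85 against 7.29, 7.61 and 7.63, a difference of -0.26 (adjusted p = 0.195). Mir3085 and Mir5135 were the other genes with every transgenic array below every control array, with differences of -0.30 and -0.34.

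Of 370 microRNA genes below the level limit 20 rose (5.41%) and 2 fell (0.541%), beside 5.35% and 5.76% of all genes, with a median difference of 0.04. They include Mir181a-2, Mir30c-1, Mirlet7d and Mirlet7e, given above, and Mir300 of the Dlk1-Dio3 domain, which rose by 0.64 (limma adjusted p = 0.00395) from 3.14 in control hearts.

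The machinery that makes and uses microRNAs was measured by 22 of the 26 symbols on its list. Of these 5 rose and 0 fell, with a median difference of 0.10. Over all genes tested, 5.35% were called higher and 5.76% lower. Among genes outside the microRNA set at a mean of 6.0 or more, the shares were 8.97% higher and 9.96% lower. Whether the list differs from these shares was not tested. Tnrc6a, the partner of Argonaute in silencing, had 7.89, 7.84 and 7.77 in control and 8.69, 8.51 and 8.34 in transgenic hearts and rose by 0.68 (SE 0.11, limma adjusted p = 0.00483). Khsrp, which aids processing of some precursors including let-7, rose by 0.53, and Tut4, which adds uridines to let-7 precursors, by 0.52. Ddx17, a helicase of the Drosha complex, rose by 0.44 (adjusted p = 0.0125), lost without control 1 (0.0533) or transgenic 2 (0.0604). Ago3 rose by 0.43 (adjusted p = 0.0221), lost without control 1 (0.0715), transgenic 1 (0.0773) or transgenic 2 (0.0903). The list thus had 3 rises without control 1 or without transgenic 2.

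The core enzymes did not pass. Drosha had a difference of -0.08 (95% interval -0.30 to 0.15), Xpo5, the exporter of precursors, 0.09 (-0.14 to 0.32), Dicer1 0.20 (-0.01 to 0.40) and Ago2 0.17 (-0.02 to 0.37). Dgcr8 was not analysed here. The limma adjusted p-values of these 4 ran from 0.211 for Dicer1 to 0.7 for Drosha.

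Of the 25 calls, 13 held whichever array was left out and under every other setting of the fit. They are Mir703, Mir505, Mir3097, Mir23b, Mir143, Mir107, Mir1898, Mir99a, Mir181b-1, Mir7-1, Mir1927, Mir181b-2 and Mir490. Among them, Mir1927, Mir181b-2 and Mir490 had control means of 5.98, 5.72 and 5.55 and are in the set only through their transgenic values. The count of 13 thus includes genes that their own rise helped to select. Without transgenic 2 the count of called genes was 14. Under the intensity trend Mir15a, Mir99ahg, Mir467c and Mir669a-3, not called here, passed as well. All 25 had a positive difference in every fit, those with renewed normalization or centring included.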

How the data were processed

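Mouse heart RNA was measured on 6 Affymetrix arrays, 3 control and 3 transgenic, from 100 ng of total RNA each per the labels' protocols. The authors deposited log2 expression values. Tools listed in the submitters' processing notes are limma, oligo and RMA, with no version or order. How background was corrected and whether probes were filtered is not given in the sources used here, and annotation of the probes came from the platform. That annotation gave 1 symbol for 23521 of 41345 probes, several for 1814 and none for 16010. Probes with 1 symbol were used, the brightest per gene.

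The test was limma (version 3.58.1, under R 4.3.3) without covariates or filter, two-sided, with Benjamini-Hochberg adjustment over 22180 genes and a threshold of 0.05. Each gene had 4 residual degrees of freedom. Its variance was moderated over all genes, and p-values and intervals used the larger total degrees of freedom that result. The steps were tested on simulated data. The files name no genome build, so RefSeq (GRCm38.p6) served for neighbours, hosts and the printed sequences with their positions. A host is a RefSeq gene whose span holds the microRNA gene. All 101 genes were found there by gene identifier.

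The genes and lists were chosen with earlier results of these data known. The genes named were every called gene, the 10 brightest, the 3 nearest either side of the limit, neighbours in a cluster, genes with a shared seed, their hosts, and called or core members of the processing list. Mir187, Mir210, Mir1938, Mir5135 and the pairs of an uncalled gene with a called host were named after their values were seen. Alternatives changed the probe rule, the filter, the normalization, the variance model, the level limit and the arrays used. The number of arrays limits the precision.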

Additional observations from a re-analysis of the deposited data

How the results depend on the processing

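Leaving out the dimmest genes, averaging or separately testing probes, renewed quantile normalization, centring, an intensity trend with robust variance, array weights and the replicate block gave between 23 and 34 called genes of the 101. Of the 25 main calls, 21 were kept with renewed quantile normalization, 23 with centring and 23 with the block. Genes called lower numbered 2 with renewed quantile normalization (Mir1938 and Mir3085), 1 with the trend (Mir1938) and 2 with array weights (the same genes). Over all genes, the share of calls that were higher was 48.2%, 36.4% after renewed quantile normalization and 38.1% after centring. Leaving out each array in turn gave 1171 to 2249 calls over all genes (569 to 970 higher, 602 to 1279 lower), where omitting control 1 gave 1378, and omitting transgenic 1, 2 or 3 gave 1217, 1171 or 1553. It gave 14 to 25 of the 101 (14 to 24 higher, 0 to 1 lower) and 3 to 5 rises in the processing list. With a limit of 7.0 the set had 11 calls among 54 genes, all higher (20.4%). At 5.5 it had 32 among 136, all higher (23.5%). With no limit it had 47 among 471, 45 higher (9.55%) and 2 lower, where all genes gave 5.35% higher.

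Replicate numbers did not pair the samples. Deviations of same-numbered arrays correlated at 0.0163, -0.13 and 0.0138. The block moved the count over all genes from 2465 to 1996 and gave 25 called genes of the 101. Of the main calls 23 were kept, and Mir467c and Mir99ahg were called in addition. Dim probes near the bottom of the scale limit what can be said of neighbours such as Mir181a-1.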
